A study of Homo sapiens with 2 samples.

Results

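Metallothioneins are small cysteine-rich proteins, and 6 of their genes (MT2A, MT1E, MT1M, MT1F, MT1G and MT1X) were followed through long-read single-cell RNA data from a pool of ovarian cancer cells. The genes were picked by name from the table of transcripts, and they are 6 of 57110 gene entries. For 5 of them the entry carries the gene's name alone. MT1X shares an entry with AC026461.1, an overlapping gene, but all 680 counts of that entry were on a transcript of MT1X and 0 on the transcript of AC026461.1.

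IGROV1, SK-OV-3 and COV504, 3 established human ovarian cancer cell lines, were mixed 1:1:1 after detachment with trypsin, and neither a treatment nor a genotype change is given in the labels. One library of this pool was read on a PromethION nanopore instrument and 1 on an Illumina instrument. Only the nanopore library had expression values that were used here. It holds 13052893 estimated counts over 2462 cell barcodes, all 2462 of which are also on the Illumina list. With 1 library there is no replicate and no test. Every interval below is a 95% interval that covers counting error only.

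Metallothioneins bind zinc, copper and cadmium through their cysteines and buffer these metals inside the cell. Their genes are switched on by zinc through MTF1, a transcription factor that binds short metal response elements upstream of them, and glucocorticoids and oxidative stress also raise them. In ovarian cancer they have been studied because they can also bind platinum drugs.

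Cells were given to a line by 10 marker genes, none of them a metallothionein. A barcode with at least 1000 counts was assigned where 1 of 3 marker sets held at least 75% of the marker counts. ERBB2, NNMT, TSPAN1 and DHRS2 gave 648 cells, with a median of 4953 counts per cell. These cells are called SK-OV-3-like, because GRB7, MIEN1, STARD3 and PGAP3, listed as high in SK-OV-3 and not used to choose the cells, had their highest level there. ERBB2, also listed, was used to choose them. CDKN2A, listed as absent in SK-OV-3, had 1 count there, 0 in the RARRES2-high cells and 88 in the FOLR1-high cells. RARRES2 and TMEM100 gave 473 RARRES2-high cells (median 6262), and FOLR1, CLDN3, DEFB1 and CXCL14 gave 765 FOLR1-high cells (median 5289). The markers listed for IGROV1 that were not used to choose cells were split, with PAX8 highest in the FOLR1-high cells and CDH1 and ESRP1 highest in the RARRES2-high cells; FOLR1 and CLDN3, also listed, were used to choose the FOLR1-high cells. Neither group is therefore given the name of a line. Markers of other cell types were split. PTPRC and CD3D, of leukocytes, had at most 1 count in a line, and DCN, of fibroblasts, had 0 in each. COL1A1, also of fibroblasts, reached 95.6 CPM (counts scaled to the same total of 1000000 in every line) in the SK-OV-3-like and 23.4 in the RARRES2-high cells. COL1A2, of fibroblasts too, had 13.1 and 4.14 CPM there. CDH5, of endothelium, had 30.5 CPM in the RARRES2-high cells, where the endothelial genes PECAM1 and VWF had 0 and 3 counts. The part of these genes in the results was not tested.

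The coding sequences are printed first because their likeness bears on every value below. They come from GENCODE release 29 (GRCh38), and capitals mark the codons of cysteine. MT2A is shown as the gene with the most counts, MT1E and MT1F as the genes that differed most between lines in opposite directions, and MT1X as the one that differed least.
MT2A: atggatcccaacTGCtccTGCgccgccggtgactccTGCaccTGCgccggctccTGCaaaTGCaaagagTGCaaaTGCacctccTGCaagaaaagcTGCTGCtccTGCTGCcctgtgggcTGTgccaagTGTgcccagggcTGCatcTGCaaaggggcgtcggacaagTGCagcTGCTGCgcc
MT1E: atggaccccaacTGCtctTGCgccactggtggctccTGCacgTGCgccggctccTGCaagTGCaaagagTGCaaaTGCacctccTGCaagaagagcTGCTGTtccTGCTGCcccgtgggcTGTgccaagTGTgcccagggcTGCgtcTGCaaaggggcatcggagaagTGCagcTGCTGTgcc
MT1F: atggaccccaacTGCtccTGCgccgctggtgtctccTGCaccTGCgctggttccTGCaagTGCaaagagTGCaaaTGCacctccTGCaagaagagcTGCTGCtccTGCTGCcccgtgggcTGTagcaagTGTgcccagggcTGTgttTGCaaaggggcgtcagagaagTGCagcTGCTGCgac
MT1X: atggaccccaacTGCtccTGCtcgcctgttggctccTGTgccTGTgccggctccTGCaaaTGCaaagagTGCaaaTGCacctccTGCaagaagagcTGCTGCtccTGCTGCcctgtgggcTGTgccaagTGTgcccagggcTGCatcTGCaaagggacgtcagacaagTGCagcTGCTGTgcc
Each of the 6 members has a coding sequence of 183 bases, 61 codons before the stop codon, and 20 of these codons (32.8%) code for cysteine. Between members, 88.5% (MT1F and MT1X) to 95.1% (MT2A and MT1G) of the coding bases are identical. The bases after the stop codon are less alike, at 66 to 76.4% in every pair except MT1E and MT1M, where 89.0% are identical. Reads given to the wrong member were not tested for, so small counts of 1 member in cells rich in another are uncertain, and most of all MT1M beside MT1E.

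All 6 genes lie on chromosome 16 (GRCh38 positions of the deposited table). MT2A (ENSG00000125148) runs from 56608199 to 56609497, MT1E (ENSG00000169715) from 56625475 to 56627112, and MT1M (ENSG00000205364) from 56632233 to 56633986. Further along, MT1F (ENSG00000198417) runs from 56657694 to 56659305, MT1G (ENSG00000125144) from 56666731 to 56668065, and the joined entry of MT1X (ENSG00000187193) from 56682424 to 56687807. MT1G is on the minus strand and the other 5 are on the plus strand. The members together span 79.6 kb.

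The RARRES2-high cells held the most metallothionein RNA and the FOLR1-high cells the least. The 6 members summed to 2581 CPM in the RARRES2-high cells (interval 2527 to 2636), 653 CPM in the SK-OV-3-like cells (626 to 681) and 201 CPM in the FOLR1-high cells (188 to 214). The 3 intervals did not overlap. The lines also differed in the mitochondrial share of counts, which was 2.93% in the SK-OV-3-like, 3.11% in the RARRES2-high and 7.07% in the FOLR1-high cells. Its part in the differences was not tested; with mitochondrial and ribosomal protein genes left out of the total, the order of the 3 sums was the same, at 3201, 777 and 313 CPM.

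MT2A, the only functional gene of the second class and the main form in most human cells, had the same order of lines. It had 6699 counts or 1983 CPM in the RARRES2-high cells (interval 1936 to 2031). The SK-OV-3-like cells had 2051 counts or 596 CPM (570 to 622), and the FOLR1-high cells 558 counts or 124 CPM (114 to 134). MT2A was thus 3.33-fold higher in the RARRES2-high than in the SK-OV-3-like cells (interval 3.17 to 3.50) and 16.05-fold higher than in the FOLR1-high cells (14.7 to 17.5). Between the SK-OV-3-like and the FOLR1-high cells the ratio was 4.82 (4.39 to 5.30). By count, MT2A ranked 70 among the gene entries of the RARRES2-high cells, 238 in the SK-OV-3-like cells and 1101 in the FOLR1-high cells.

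MT1E, a gene of the first class, had nearly all its counts in 1 of the 3 lines. It had 1715 counts or 508 CPM in the RARRES2-high cells (interval 484 to 532). Only 10 counts (2.90 CPM, 1.39 to 5.34) were found in the SK-OV-3-like cells and 9 (1.99 CPM, 0.911 to 3.78) in the FOLR1-high cells. The ratios were 175 (interval 94.8 to 365) and 255 (134 to 558). They move with the few counts of the low lines: the log2 ratio of the SK-OV-3-like to the RARRES2-high cells was -7.45, and -8.44 without doublets, -8.10 with a line share of 90% and -6.62 as a mean over cells. That of the RARRES2-high to the FOLR1-high cells was 7.99, and 9.16 without doublets and 8.58 as a mean over cells. The 2 low lines did not differ beyond counting error, with an interval of their ratio from 0.532 to 4.05. MT1E had a count in 75.5% of the RARRES2-high cells and in 0.617% and 0.654% of the SK-OV-3-like and FOLR1-high cells. Whether the few counts in the low lines came from these cells was not tested.

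The ratio of MT2A to MT1E differed between lines. In the RARRES2-high cells there were 3.91 MT2A counts for each MT1E count (interval 3.70 to 4.12). The ratio was 205 in the SK-OV-3-like cells (111 to 428) and 62.0 in the FOLR1-high cells (32.4 to 136). The interval of the RARRES2-high cells did not overlap the other 2. Both high ratios rest on few MT1E counts and moved with the choice of cells. Without doublets they were 356 (152 to 1097, on 5 MT1E counts) and 135 (52.3 to 496, on 4), and with a line share of 90% they were 311 (133 to 959) and 83.7 (38.2 to 229), against 3.89 and 4.01 in the RARRES2-high cells. The part of free RNA in the low counts was not tested.

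MT1M was found almost only beside MT1E. It had 81 counts or 24.0 CPM in the RARRES2-high cells (interval 19.0 to 29.8), 2 counts in the FOLR1-high cells and 0 in the SK-OV-3-like cells. The level in the RARRES2-high cells was 27.5-fold the floor of 3 counts in the SK-OV-3-like cells, with a lower bound of 21.9-fold for the counting error of its 81 counts, and its ratio to the FOLR1-high cells had an interval from 14.5 to 455. Without doublets the FOLR1-high cells had 0 MT1M counts as well, and with a line share of 90% the RARRES2-high level was 17.7 CPM, on 32 counts. MT1A, a family gene that is not among the 6, had a similar spread, with 86, 1 and 6 counts in the RARRES2-high, SK-OV-3-like and FOLR1-high cells.

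MT1F ran the other way. It had 121 counts or 26.8 CPM in the FOLR1-high cells (interval 22.2 to 32.0), the line with the least MT2A. The RARRES2-high cells had 22 counts (6.51 CPM, 4.08 to 9.86) and the SK-OV-3-like cells 4 (1.16 CPM, 0.317 to 2.98). The FOLR1-high cells were 4.11-fold above the RARRES2-high cells (2.60 to 6.81) and 23.1-fold above the SK-OV-3-like cells (8.78 to 86.0). With a line share of 90% the RARRES2-high level was 2.77 CPM, and the log2 ratio of the RARRES2-high to the FOLR1-high cells was -3.23 in place of -2.04. As a mean over cells, the log2 ratio of the SK-OV-3-like to the FOLR1-high cells was -3.93 in place of -4.53.

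MT1X was the most even member. It had 183 counts or 53.2 CPM in the SK-OV-3-like cells (interval 45.7 to 61.4), 195 counts or 57.7 CPM in the RARRES2-high cells (49.9 to 66.4) and 216 counts or 47.8 CPM in the FOLR1-high cells (41.7 to 54.7). The intervals of its 3 ratios, 1.09, 1.11 and 1.21, all held 1, and the highest upper bound was 1.47. Its order was not stable: with mitochondrial and ribosomal protein genes out of the total, the FOLR1-high cells came first at 74.6 CPM against 71.6 and 63.2. MT1G, the remaining member, had 7 counts in the RARRES2-high cells (2.07 CPM, 0.833 to 4.27) and 0 in both other lines, where the upper bound of the interval for 0 counts was 1.07 CPM (SK-OV-3-like) and 0.817 CPM (FOLR1-high).

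**Figure D1:**
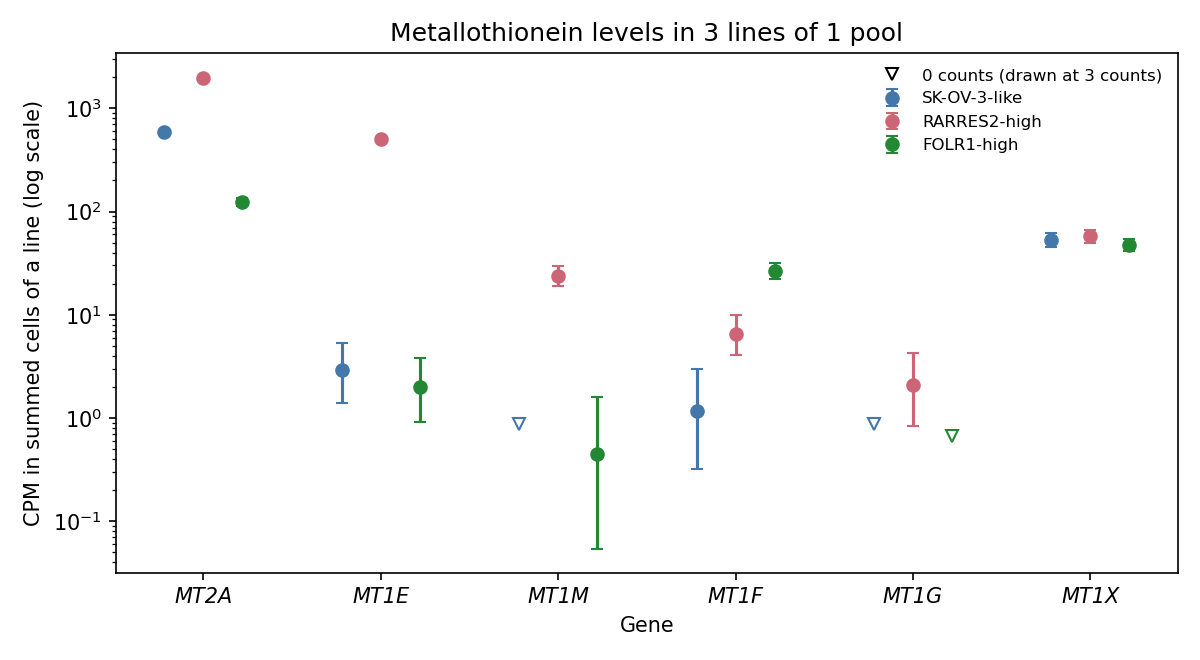
Level of each metallothionein gene (CPM in the summed cells of a line, log scale) in 3 lines of 1 library; points are summed levels, bars are 95% Poisson intervals, and open triangles stand for 0 counts, drawn at 3 counts. MT2A falls from 1983 to 596 to 124 CPM, MT1E stands at 508 CPM in the RARRES2-high cells alone, MT1F is highest in the FOLR1-high cells at 26.8 CPM, and MT1X lies between 47.8 and 57.7 CPM.

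Read against all gene entries, large differences between these lines were common. A member was compared where it had at least 100 counts over both lines, and a ratio of at least 2 was counted. Between the SK-OV-3-like and RARRES2-high cells 3 of the 6 members could be compared and 2 of these (MT2A and MT1E) passed, where 31.4% of 7092 entries did. Between the SK-OV-3-like and FOLR1-high cells it was 2 of 3 (MT2A and MT1F) against 32.8% of 7265 entries. Between the RARRES2-high and FOLR1-high cells it was 3 of 4 (MT2A, MT1E and MT1F) against 32.3% of 6961 entries. These counts are a description only, because MT1E and MT1F reached the minimum through the line in which they were high (MT1E with 1715 counts against 10 and 9, MT1F with 121 against 4 and 22), so that they had to differ. MT2A and MT1X had over 100 counts in each line, and of these MT2A passed in each pair and MT1X in none. On the CPM scale the median entry itself was shifted, by a signed log2 ratio of 0.18 (SK-OV-3-like over RARRES2-high), 0.43 (SK-OV-3-like over FOLR1-high) and 0.20 (RARRES2-high over FOLR1-high), against -1.73, 2.27 and 4.004 for MT2A.

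The make-up of the metallothionein counts also differed between lines. MT2A held 91.2% of the member counts in the SK-OV-3-like cells (interval 89.99 to 92.4%), 76.8% in the RARRES2-high cells (75.9 to 77.7%) and 61.6% in the FOLR1-high cells (58.3 to 64.8%). The second gene was MT1X in the SK-OV-3-like cells at 8.14%, MT1E in the RARRES2-high cells at 19.7%, and MT1X in the FOLR1-high cells at 23.8%, where MT1F followed at 13.4%. For each MT1X count there were 11.2 MT2A counts in the SK-OV-3-like cells (interval 9.63 to 13.1) and 34.4 in the RARRES2-high cells (29.8 to 39.8). In the FOLR1-high cells there were 2.58 (2.20 to 3.04), so that MT1X came nearest to MT2A there.

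The line with the highest level was the same for most genes along the cluster, with MT1F apart. Distances here run from 56608606, the start of the shorter MT2A transcript (ENST00000561491), and not from the start of the MT2A entry. From the MT2A end, MT1E, MT1M and MT1A start 16.9, 23.6 and 30.1 kb after that point. Each had its highest level in the RARRES2-high cells, as MT2A did. MT1F, which starts 49.1 kb after the same point, was the only member highest in the FOLR1-high cells on the CPM scale. MT1G, at 58.2 kb (measured to 56666806, inside its entry), had its 7 counts in the RARRES2-high cells and so stood apart from MT1F. MT1X, at 73.9 kb (measured to 56682470, inside its entry), was even. With so few genes this is a description. Of the 19 entries of the family in the annotation, 10 had 0 counts in the whole library: MT4, MT1L, MT1JP, MT1DP, MT1CP, MT1H, MT1XP1, MT1HL1, MT1P3 and MT1P1. Of the 13 family entries beside the members, 3 were above 0: MT1A with 110 counts, the joined entry of MT1B with 4 and MT3 with 1.

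**Figure D2:**
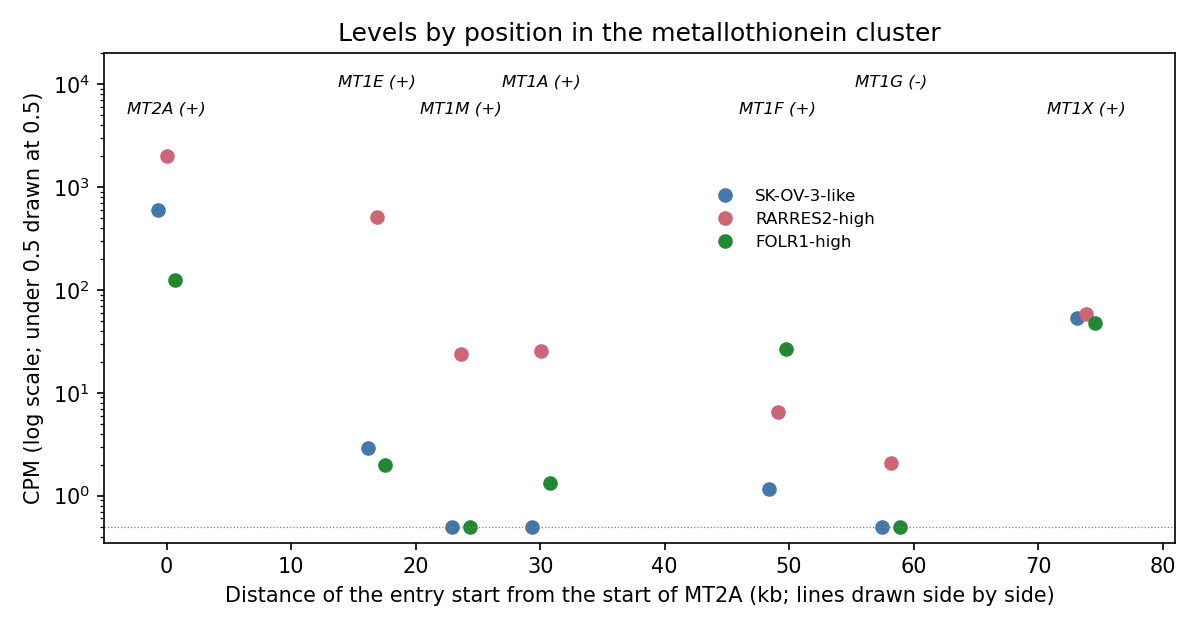
Level (CPM, log scale, values under 0.5 drawn at 0.5) of 6 metallothionein genes and MT1A by distance in kb, with strand in brackets. The distance is that of a listed transcript of each gene from 56608606, where the shorter MT2A transcript starts. The axis calls these points the entry start and the start of MT2A. Each point is 1 gene in 1 line. The RARRES2-high cells lead from MT2A to MT1A at 30.1 kb, the FOLR1-high cells lead at MT1F, MT1G at 58.2 kb has counts only in the RARRES2-high cells (2.07 CPM), and the 3 lines meet at MT1X.

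Of the genes around the cluster, NUDT21 had the order of lines of MT2A on the CPM scale. Its log2 ratio of the SK-OV-3-like to the FOLR1-high cells was 0.46, close to the 0.43 of the median entry. NUP93 had that order too, but its neighbours in the order did not differ beyond counting error (ratios of 1.19, interval 0.931 to 1.52, and 1.21, interval 0.941 to 1.55). HERPUD1 and SLC12A3 had other orders. OGFOD1 did as well, though its 2 highest lines did not differ beyond counting error (ratio 1.03, interval 0.833 to 1.28). NUP93, OGFOD1 and NUDT21 stayed under 2-fold in each pair of lines, with a largest ratio of 1.74 (NUDT21, RARRES2-high over FOLR1-high). BBS2 had too few counts to be compared. HERPUD1, a gene of the endoplasmic reticulum stress response, was lowest in the RARRES2-high cells at 59.5 CPM, against 174 in the SK-OV-3-like and 159 in the FOLR1-high cells. SLC12A3, a kidney salt transporter, had 82 counts in the FOLR1-high cells and 0 in both other lines.

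Sequences upstream of 2 members were in the RefSeq promoter table (GRCh38.p14), MT2A and MT1X. The core of the metal response element was searched as TGCACNC and TGCGCNC on both strands in the 250 bases before the RefSeq start. MT2A had 7 matches and MT1X 4; of 35116 promoters searched in the same way, 24.8% had at least 1 and 0.370% at least 4. Of the other family genes in the table, MT1H had 8 matches and MT4 had 3, both with 0 counts in the library, and MT1B had 3. The upstream stretch of MT1X is printed because this even gene carries several matches, in capitals, on the plus strand at chr16:56682220-56682423. For MT2A the windows of 30 bases at chr16:56608485-56608514 and chr16:56608519-56608548 are shown, also on the plus strand, as examples of a match on the minus strand and 1 on the plus strand.
MT1X upstream: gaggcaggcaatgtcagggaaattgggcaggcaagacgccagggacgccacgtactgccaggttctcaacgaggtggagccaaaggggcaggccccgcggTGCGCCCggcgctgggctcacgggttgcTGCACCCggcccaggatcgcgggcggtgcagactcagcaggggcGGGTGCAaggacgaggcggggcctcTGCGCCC
MT2A upstream window 1: cagcgcggggcGTGTGCAggcagcgcccgg
MT2A upstream window 2: ggcggggctttTGCACTCgtcccggctctt
A match is a string of letters and not a site shown to be bound. The windows of MT2A lie in the first exon of the longer transcript of the deposited table, which starts at 56608199.

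Other genes of metal handling and stress were taken from a list. Of its 29 genes, 24 had enough counts to be compared in some pair of lines. SLC30A1, the zinc exporter of the plasma membrane and a known MTF1 target, was highest where MT2A was intermediate. It had 77.6 CPM in the SK-OV-3-like cells (interval 68.5 to 87.4), 7.70 in the RARRES2-high cells (5.03 to 11.3) and 5.32 in the FOLR1-high cells (3.41 to 7.91). The SK-OV-3-like level was 10.1-fold (6.73 to 15.7) above the RARRES2-high and 14.6-fold (9.60 to 23.2) above the FOLR1-high level. MTF1 itself had 19.8, 13.3 and 11.3 CPM in the same order of lines, with a largest ratio of 1.75.

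Between the SK-OV-3-like and RARRES2-high cells 8 of 24 listed genes passed (33.3%, against the 31.4% of all entries). Higher in the SK-OV-3-like cells were SLC30A1, the metal importers SLC39A8 (3.18-fold), SLC39A10 (2.39-fold) and SLC39A14 (2.52-fold), the glutathione synthesis gene GCLC (2.82-fold), the quinone reductase NQO1 (2.35-fold) and the glucocorticoid target TSC22D3 (2.31-fold). FKBP5, another glucocorticoid target, was 2.07-fold higher in the RARRES2-high cells. The share of the list was thus close to that of all entries. With median-of-ratios size factors 8 of 24 passed as well (29.9% of all entries did), but 5 were higher in the SK-OV-3-like and 3 in the RARRES2-high cells: NQO1 and TSC22D3 no longer passed, and SLC39A1 and SLC31A1 did, higher in the RARRES2-high cells. As a mean over cells 7 of 24 passed (32.3% of all entries), and FKBP5 did not.

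Between the SK-OV-3-like and FOLR1-high cells 10 of 23 passed (43.5%, against 32.8%), 9 of them higher in the SK-OV-3-like cells. These 9 were SLC30A1, SLC30A9, SLC39A6, SLC39A8, the copper chaperones ATOX1 and COX17, GCLC, NQO1 (4.33-fold) and TSC22D3 (3.93-fold). The importer SLC39A4 was 2.40-fold higher in the FOLR1-high cells. This count depended on the scaling: without mitochondrial and ribosomal protein genes in the total, and also with median-of-ratios size factors, 4 of 23 passed (SLC30A1, NQO1, TSC22D3 and SLC39A4), where 28.0% and 27.7% of all entries did. As a mean over cells 11 of 23 passed, 10 of them higher in the SK-OV-3-like cells, against 33.6% of all entries. Between the RARRES2-high and FOLR1-high cells 4 of 21 passed (19.0%, against 32.3%). ATOX1 (2.72-fold) and FKBP5 (3.13-fold) were higher in the RARRES2-high cells, and SLC39A4 (2.72-fold) and SLC39A10 (2.10-fold) in the FOLR1-high cells. Without mitochondrial and ribosomal protein genes in the total, and with size factors, CCS passed as well, higher in the FOLR1-high cells (5 of 21, against 31.6% and 30.7% of all entries). As a mean over cells SLC39A10 no longer passed and NQO1 did, which left 3 genes higher in the RARRES2-high cells and 1 in the FOLR1-high cells (32.2% of all entries).

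Within a line, cells differed widely in MT2A. To set cells side by side, each was thinned to 2000 counts, which left 606 SK-OV-3-like, 443 RARRES2-high and 733 FOLR1-high cells and dropped 42, 30 and 32 shallower ones. MT2A was then seen in 41.7% of the SK-OV-3-like cells (interval 37.8 to 45.8%), 85.8% of the RARRES2-high cells (82.2 to 88.9%) and 18.1% of the FOLR1-high cells (15.4 to 21.1%). Before thinning these shares were 59.1, 95.1 and 38.0%. The median RARRES2-high cell had 3 thinned MT2A counts and the median cell of both other lines 0.

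The SK-OV-3-like cells had the highest variance relative to the mean. Their mean was 1.13 thinned MT2A counts, but 58.3% of cells had 0, where Poisson counting at that mean gives 32.2%. At the other end 11 cells had 10 or more, and the highest had 34. The tenth of cells with the most MT2A held 60.3% of the counts, against 31.6% in the RARRES2-high cells and 67.8% in the FOLR1-high cells, where the mean was only 0.250.

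**Figure D3:**
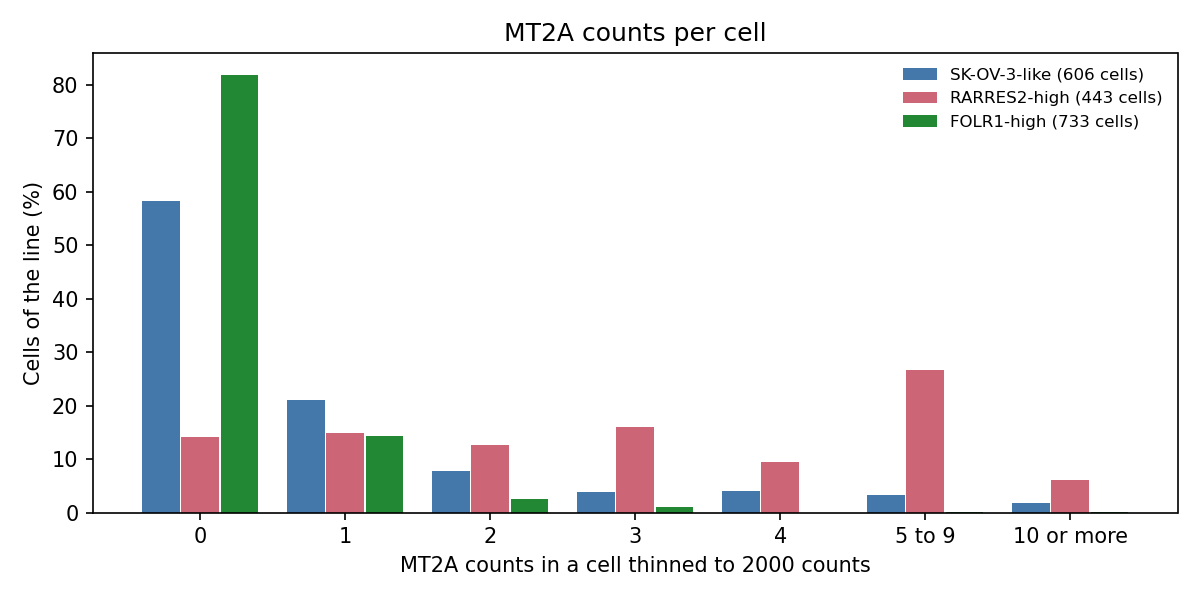
Share of the cells of each line (percent) by the number of MT2A counts in a cell thinned to 2000 counts; bars are the cells of 1 line in 1 library. Most FOLR1-high cells (81.9%) and SK-OV-3-like cells (58.3%) have 0, while 26.6% of the RARRES2-high cells have 5 to 9.

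The Fano factor, the variance over the mean across cells, is 1 for pure counting noise. For MT2A it was 5.99 in the SK-OV-3-like cells, 3.54 in the RARRES2-high cells and 2.29 in the FOLR1-high cells, beside medians of 1.04, 1.07 and 1.05 over all entries with a mean of at least 0.1. Of the members, 1, 3 and 1 had that mean in the SK-OV-3-like, RARRES2-high and FOLR1-high cells. A Fano factor of at least 1.5 was reached by MT2A, the 1 such member, in the SK-OV-3-like cells, where 4.28% of 3223 entries did. It was reached by 2 of 3, MT2A and MT1E (1.61) but not MT1X (1.49), in the RARRES2-high cells (5.87% of 2946 entries), though MT1E fell under the limit without doublets (1.47) and at 1000 counts (1.42), and by MT2A in the FOLR1-high cells (5.35% of 2469). Below the limit on the mean, MT1X had 1.86 in the SK-OV-3-like cells and MT1M 1.62 in the RARRES2-high cells. MT2A ranked 4, 24 and 33 among the entries of the 3 lines. Its mean was 1.13, 3.82 and 0.250 thinned counts there, and neither the lines nor the entries were matched on the mean. The order of its factors over the lines is thus a description only. Its factor in the SK-OV-3-like cells rests on few cells, and was 4.95 with another random thinning and 4.39 without doublets. Within each line MT2A showed almost no relation to the depth of the cell, with a Pearson r of 0.03, -0.01 and -0.04 in the SK-OV-3-like, RARRES2-high and FOLR1-high cells. Its r with the mitochondrial share of a cell was -0.04, -0.18 and 0.01, and the part of that share in the RARRES2-high cells was not tested.

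MT2A and MT1E were high in the same RARRES2-high cells. Across the 443 cells, which share 1 library and 1 depth, the Pearson r of their log-transformed thinned counts was 0.41, and MT1E ranked 1 among 2788 entries by its r with MT2A. Mean MT2A was 2.54 thinned counts in the 199 cells without MT1E and 4.12 in the 128 cells with 1 MT1E count. It was 5.08 in the 95 cells with 2 to 3 and 8.52 in the 21 cells with 4 or more. The 4 intervals did not overlap, but they cover counting error only. The spread of MT2A between cells of this line was larger, with a Fano factor of 3.54, and is not in these intervals. MT1M had 9 of its 21 thinned counts in those last 21 cells. Reads given to the wrong member would also place the genes in the same cells, and this was not tested.

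**Figure D4:**
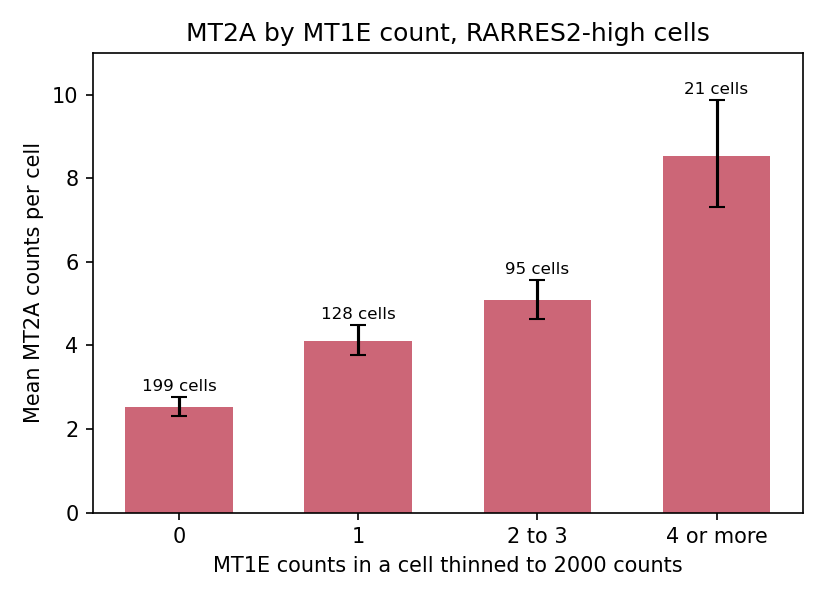
Mean MT2A counts per cell against the MT1E counts of the same cell, both in RARRES2-high cells thinned to 2000 counts; bars are means, whiskers 95% Poisson intervals of the summed counts, and the number of cells stands above each bar. The mean goes from 2.54 to 8.52.

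MT1X had an r with MT2A of 0.19, 0.11 and 0.11 in the SK-OV-3-like, RARRES2-high and FOLR1-high cells. In the SK-OV-3-like cells it was 0.28 with another random thinning and 0.23 without doublets, and at such sparse counts none of these values is read as a finding. Outside the family, the entries most like MT2A in the SK-OV-3-like cells were the serine protease PRSS23 (r = 0.40), the intermediate filament gene VIM (0.38), the galectin LGALS1 (0.28), the actin-binding TMSB10 (0.27) and the caveolin CAV1 (0.27), over 606 cells. In the RARRES2-high cells they were TMSB10 (0.34), the transglutaminase TGM2 (0.30), a joined entry with S100A13 (0.26), the chromatin protein HMGA1 (0.26) and VIM (0.25), over 443 cells. TMSB10 and VIM were on both lists. TGM2 and HMGA1 had negative values in the SK-OV-3-like cells, -0.16 and -0.16. In the FOLR1-high cells 0 of 2325 entries reached 0.2.

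Among the marker genes that assigned cells to lines, TSPAN1 (r = -0.27) and ERBB2 (-0.20) had a negative r with MT2A within the SK-OV-3-like cells, while NNMT (0.14) and DHRS2 (0.10) of the same set had a positive one. Within the RARRES2-high cells TMEM100 had -0.28 and RARRES2 0.0074, and within the FOLR1-high cells the 4 markers of that set lay between -0.03 and 0.04. These genes were used to choose the cells, so their values are given only as a description.

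Cells were also split by genes of the cell cycle, as ranges of a score and not as cell types. SK-OV-3-like cells with at least 3 of their 2000 thinned counts in 12 mitotic genes (128 cells) had 1205 CPM of metallothioneins (interval 1135 to 1279). Of the rest, the 29 cells with at least 3 counts in 13 S-phase genes had 420 CPM (333 to 522), and the other 449 cells 459 CPM (431 to 487). The high value rested on few cells: 10 of the 128 held 562 of its 1084 counts, 1 of them 251, and without doublets the level was 866 CPM. Metallothionein was nevertheless seen in 67.2% of the 128 thinned cells (58.3 to 75.2%) and in 39.4% of the 449 (34.9 to 44.1%). The former were also deeper, with a median of 7006 against 4812 counts per cell before thinning, and 41 cells of the line lay at 2 or 3 mitotic counts, next to the limit.

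In the other lines the ranges lay closer together, and the difference between lines was not tested. In the RARRES2-high cells the values were 2573, 2289 and 2736 CPM for the mitotic range, the S-phase range and the others, and with another random thinning they were 2710, 2625 and 2177, in another order. In the FOLR1-high cells they were 224, 164 and 202 CPM, and 215, 207 and 187 with another random thinning, again in another order. That thinning also put the S-phase range of the SK-OV-3-like cells above the others, at 517 against 468 CPM, with the mitotic range at 1189. Split by CXCL14 instead, the FOLR1-high cells in which it held at least 75% of the counts of CXCL14, DEFB1 and CD44 (251 cells) had 161 CPM (141 to 185). Those in which it held at most 25% (302 cells) had 209 CPM (190 to 230), and the 205 cells with none of the 3 genes had 234 CPM (206 to 264). The remaining 7 cells lay between. Between the first 2 groups MT1X had 29.4 (20.9 to 40.2) against 53.4 CPM (43.8 to 64.5), while MT2A had 109 and 124 CPM with overlapping intervals. At equal depth MT1X was seen in 5.44% (2.93 to 9.12%) against 9.76% (6.64 to 13.7%) of cells, intervals that overlap. The first group was also shallower, with a median of 4939 against 6147 counts per cell, and CXCL14 and DEFB1 were among the genes that chose the line.

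**Figure D5:**
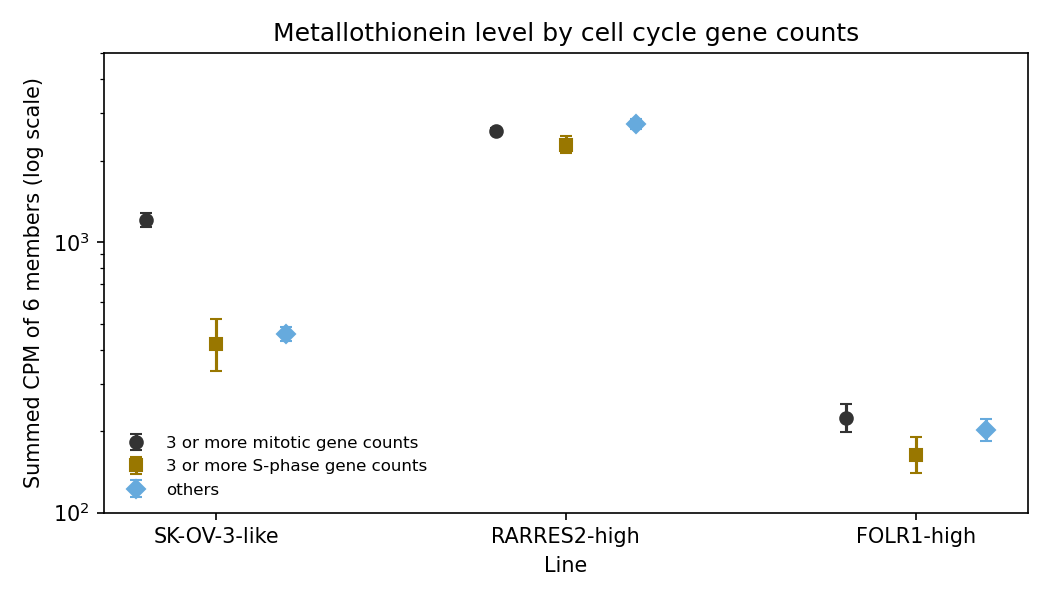
Summed CPM of the 6 metallothionein genes (log scale) by cell cycle gene counts in 3 lines; points are summed levels of the cells in a range and bars are 95% Poisson intervals. In the SK-OV-3-like cells the mitotic range stands at 1205 CPM above 420 and 459 CPM, and in the other lines the 3 ranges lie close together.

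Long reads also gave the transcripts. Nearly all MT2A counts were on the transcript ENST00000245185, with 99.8% in the SK-OV-3-like, 99.9% in the RARRES2-high and 99.9% in the FOLR1-high cells. MT1E was on ENST00000306061 for 98.2% of its counts in the RARRES2-high cells (interval 97.5 to 98.8%). A further 1.54% (0.993 to 2.21%) was on ENST00000568293, which joins the first exon to the last and lacks the coding exon of 66 bases. MT1F in the FOLR1-high cells was on ENST00000334350 for 95.5% of its counts (90.6 to 98.6%), and MT1X was on ENST00000394485 for 100% in each line. Each member with 2 or more listed transcripts thus used 1 main transcript of 3 exons wherever it had at least 50 counts. MT1M has only 1 listed transcript, so its share was fixed in advance.

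Barcodes outside the lines are given for completeness. The 243 barcodes with at least 1000 counts but no line had 1711 CPM of metallothioneins (interval 1647 to 1776), and MT1E was seen in 46.9% of them; the RARRES2-high set led in 109. Next to the limit, the 85 barcodes whose leading set held 75 to under 80% of the marker counts had 1711 CPM and the 39 barcodes at 70 to under 75% had 1663 CPM. The 333 barcodes under 1000 counts had 1223 CPM (1025 to 1447).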

How the data were processed

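The authors deposited estimated counts per transcript and cell barcode for the PromethION library; the values are not normalised. The submitters' processing notes name Cell Ranger 6.0.1 and GRCh38. Not given in the sources used here are the aligner, the Isosceles version and whether molecular identifiers were collapsed. Counts were summed per gene entry (whole within 1e-06, then rounded). Barcodes were assigned to lines as described in the report, and counts of a line were summed and scaled to CPM. Intervals are exact Poisson or Clopper-Pearson intervals (scipy 1.17.1). Genes counted as past 2-fold had at least 100 counts over both lines; ratios of MT1M, and of MT1E between the low lines, are printed below that minimum. The floor was 3 counts. Cells were thinned without replacement to 2000 counts (seed 1). Doublets (Scrublet in scanpy 1.11.5, expected rate 0.02) stayed in and were left out as an alternative. Likeness was ranked among entries seen in at least 10% of thinned cells, naming up to 5 per line with r of at least 0.2; all members, the family, neighbours of the cluster and listed metal genes past 2-fold, with MTF1 and SLC30A1, were named too. The ratio, Fano and correlation steps were tested on simulated data. The members, lists and tests were chosen with earlier results of these data known. The Illumina list of barcodes was used only for matching.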

Additional observations from a re-analysis of the deposited data

How the results depend on the processing

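No paired analysis was possible because the pool gave 1 library per platform and no replicates. The order of the 3 summed levels was the same under each alternative run. The SK-OV-3-like sum moved beyond its interval, to 611 CPM with a line share of 90%, 576 without doublets, 777 without mitochondrial and ribosomal protein genes, 548 with median-of-ratios size factors and 617 as a mean over cells. The RARRES2-high sum was 3201 and the FOLR1-high sum 313 without mitochondrial and ribosomal protein genes, and the latter 229 with size factors. With no minimum count, 5 of 6 members passed 2-fold between the SK-OV-3-like and RARRES2-high cells (31.9% of 16599 entries did), 2 of 5 between the SK-OV-3-like and FOLR1-high cells (32.9% of 16414) and 5 of 6 between the RARRES2-high and FOLR1-high cells (32.6% of 16604). These counts are a description only. Entries with at most 3 counts in both lines could not pass, so the shares of all entries are not a like background. MT1M was such an entry between the SK-OV-3-like and FOLR1-high cells, with 0 and 2 counts. MT1M and MT1G passed only through the RARRES2-high cells, with 81 and 7 counts there. Cells with a metallothionein count were 45.0, 89.8 and 28.5% in the SK-OV-3-like, RARRES2-high and FOLR1-high cells, 31.0, 78.6 and 17.6% at 1000 counts, and 63.0, 95.6 and 53.5% without thinning, since detection grows with depth. Members with a Fano factor of at least 1.5 numbered 2 of 2 (MT2A and MT1X) in the SK-OV-3-like cells with another seed (4.15% of all entries). In the RARRES2-high cells they numbered 1 of 2 (MT2A) at 1000 counts (4.75%) and 1 of 3 (MT2A) without doublets (5.57%). The r of MT2A and MT1E was 0.29 at 1000 counts. Over whole estimates only, the MT2A share of ENST00000245185 in the FOLR1-high cells was 100%. Levels by cell cycle range, with alternatives chosen after seeing the data, moved to 866 CPM (SK-OV-3-like, mitotic, without doublets). With another seed they moved to 2710, 2625 and 2177 CPM (RARRES2-high, mitotic, S-phase and others) and 207 CPM (FOLR1-high, S-phase). Except where a sentence above says otherwise, the cause was not tested.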
